A study of Durio zibethinus with 9 samples.

Results

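The genes described here are 5 cellulose synthase-like and endoglucanase genes of durian (Durio zibethinus). These are cellulose synthase-like protein G2 (LOC111280213), cellulose synthase-like protein D3 (LOC111296013), endoglucanase-like (LOC111278395), and a pair of genes both named endoglucanase 25-like (LOC111275321 and LOC111281000). They were taken by gene name, and make up 5 of the 39345 reference genes above 0 in at least 1 library. All 5 were among the 21585 genes with an FPKM (fragments per kilobase of gene, scaled to the library's mapped fragments) that reached 1 in 3 or more of the 9 libraries, which were tested. The G2 gene met this minimum only through its 3 mature-stage libraries, and LOC111281000 would have missed it without its young-stage libraries. PolyA RNA was sequenced from D24 pulp of young fruits (YS, 90 days after anthesis), mature fruits (MS, 120 days) and ripened fruits (RS, 127 days), in 3 libraries each. Ripening-stage pulp came from mature fruits left at room temperature after harvest. All fruits were of 1 clonal variety from 1 site, and no treatment was applied. The question was how the expression of these genes differed between the stages.

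The plant cell wall is built around cellulose, which cellulose synthase A subunits spin at the plasma membrane as bundles of beta-1,4-glucan chains. Cellulose synthase-like proteins are related enzymes, and some families of them make other wall polysaccharides. Family D members are best known from Arabidopsis, where CSLD3 is needed by tip-growing root hairs, while the product of family G is not settled. Endoglucanases cut beta-1,4-glucans within the chain. Some are secreted and are known from fruits that soften, whereas the membrane-bound endoglucanase 25 of Arabidopsis, KORRIGAN, works with the cellulose synthase complex during cell growth. A durian name of this kind rests on sequence likeness and was not tested here.

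The 5 genes lie on 5 scaffolds of the reference used by the authors, whose build is not given in the sources used here. The G2 gene spans 3533161 to 3539942 on the minus strand of NW_019168026.1, and the D3 gene 3704117 to 3710436 on the plus strand of NW_019168492.1. The endoglucanase-like gene spans 4158516 to 4160995 on the minus strand of NW_019167838.1. The endoglucanase 25-like genes span 15361849 to 15365039 on NW_019167982.1 (LOC111275321) and 11471579 to 11475196 on NW_019168037.1 (LOC111281000), both on the minus strand. The files give whole gene spans and not exons. No other reference gene overlapped a member in any of the 45 combinations of member and library. In 38 of the 45, the table also held a locus assembled anew over the member on the same strand, and the member's own row was used. Often the locus carried the member's own FPKM, as for the endoglucanase-like gene in YS library 01 (1154 in both). Adding assembled loci, an alternative used below, then counted the same signal again. The endoglucanase-like gene had no such locus at MS, so adding them enlarged its log2 fold change from YS to MS to -7.31.

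Libraries did not stand equally close within a stage. Taking genes of FPKM 10 or more, the log2 ratio of a pair of libraries had an SD of 0.123 to 0.127 within MS, 0.791 to 0.939 within YS and 0.151 to 0.614 within RS. The mapped bases ranged from 2350.2 to 3553.1 Mb per library. RS library 03 stood apart, with 15161 genes at FPKM 1 or more against 19599 and 19452 in RS libraries 01 and 02, and with 26.3% of all gene FPKM in its 10 highest genes against 8.34% and 8.74%. Because of this, calls that changed without RS library 03, or with the MS libraries counted as 1 sample, are given both ways. With the MS libraries averaged into 1 sample, the spread is that of the YS and RS libraries and the lone MS sample is assumed to vary like them, so fold changes hardly move and only the p-values change. Below, a gene rose, fell or passed the test where limma gave an adjusted p below 0.05 and a log2 fold change larger than 1.5 in that direction. In whole pulp, fewer cells that express a gene and less RNA per cell cannot be told apart.

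The 2 cellulose synthase-like genes ran in opposite directions from YS to MS. The G2 gene was not listed in YS library 01 and stood at 0.623 and 0.138 FPKM in YS libraries 02 and 03. It reached 11.3, 12.5 and 11.8 FPKM in MS libraries 01, 02 and 03, and stood at 0.925, 0.736 and 0.0853 FPKM in RS libraries 01, 02 and 03. Every MS library was thus above every YS and every RS library, while the YS and RS libraries overlapped. Mean expression at YS was 0.254 ± 0.327 FPKM, against 11.9 ± 0.632 FPKM at MS and 0.582 ± 0.441 FPKM at RS (SD, n = 3).

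On the log2(FPKM + 1) scale, the G2 gene rose by 3.39 from YS to MS (standard error 0.225, limma adjusted p = 0.0002557). From MS to RS it fell by 3.07 (standard error 0.248, limma adjusted p = 0.0003936), and its difference from YS to RS was 0.33 (limma adjusted p = 0.6018). The MS mean was 46.8 times the YS mean and 20.4 times the RS mean in FPKM. The log2 changes are smaller than these ratios because 1 was added to each value. Both changes kept their size with the MS libraries averaged (3.39 and -3.07), and both calls passed with any 1 library left out. The G2 gene met the FPKM minimum only through its 3 MS libraries, so neither call is support for a direction. Assembled loci over this gene held more than its own row in YS library 02 (1.64 FPKM) and in RS libraries 01 and 02 (2.52 and 1.24 FPKM), all still below the MS libraries.

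The D3 gene was highest in young pulp. It stood at 26.4, 28.6 and 41.7 FPKM in YS libraries 01, 02 and 03, at 1.84, 1.83 and 1.90 in the MS libraries, and at 8.29, 7.004 and 1.96 in the RS libraries. The 3 stages did not overlap, although RS library 03 lay just above the highest MS library. Its YS mean was 32.2 ± 8.26 FPKM, its MS mean 1.86 ± 0.0409 FPKM and its RS mean 5.75 ± 3.35 FPKM (SD, n = 3).

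From YS to MS the D3 gene fell by 3.51 on the log2 scale (standard error 0.217, limma adjusted p = 0.0001886), and also passed with the MS libraries averaged (limma adjusted p = 0.02081). It was also lower at RS than at YS, with a log2 fold change of -2.43 (standard error 0.471, limma adjusted p = 0.008369). Leaving out RS library 03 narrowed this to -1.92, which still passed (limma adjusted p = 0.01954). The difference of 1.08 from MS to RS did not pass the test (standard error 0.422, limma adjusted p = 0.08565). Without RS library 03 that difference was 1.59 and passed (limma adjusted p = 1.76e-05, in a range of 1.76e-05 to 0.4982 over 16 alternatives). With FPKM divided by a size factor per library (median ratio to the gene-wise geometric mean), RS library 03 held 4.10 against 7.91 and 6.81 in RS libraries 01 and 02.

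**Figure D1:**
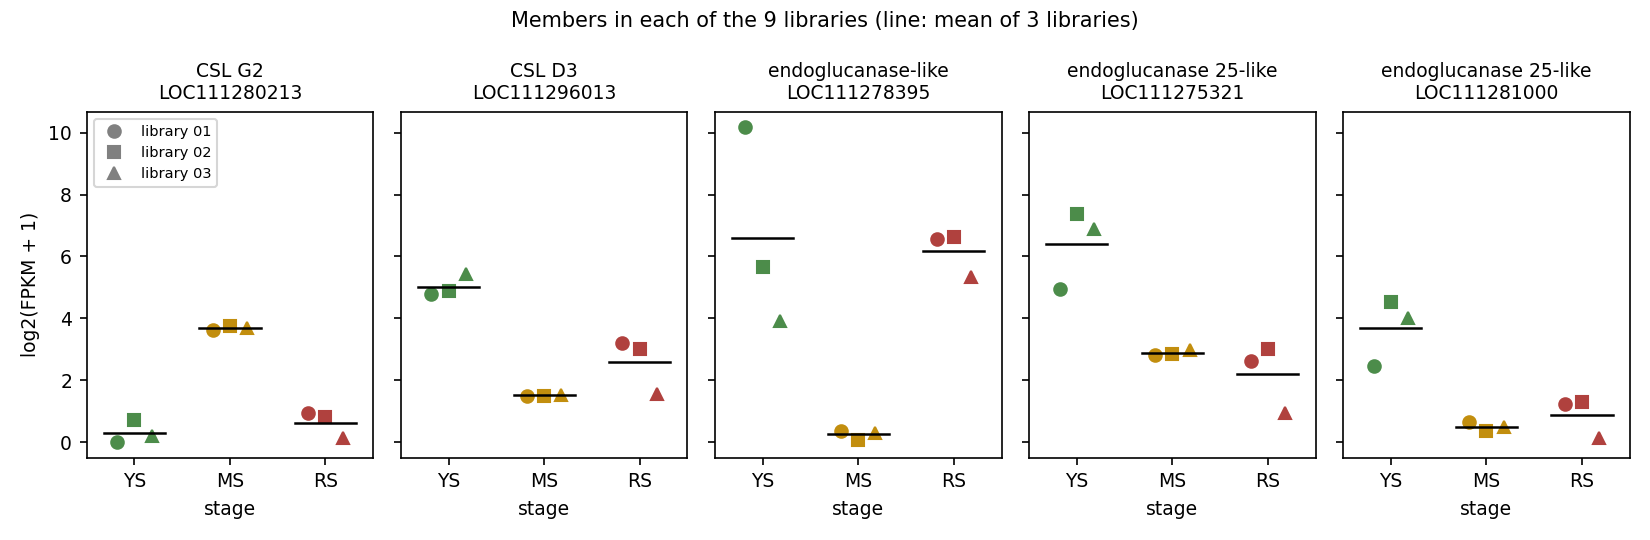
Level of each of the 5 genes, as log2(FPKM + 1), in the 9 libraries, with stages on the x axis, library numbers as symbols and the mean of each stage as a line. The G2 gene is high only at MS (11.3 to 12.5 FPKM), the other 4 have a lower mean at MS than at YS, and the endoglucanase-like gene is high again in all 3 RS libraries (39.3 to 97.8 FPKM).

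The endoglucanase-like gene had the widest range of the 5. It stood at 1154 FPKM in YS library 01, where it was the 46th highest gene, and at 49.9 and 14.0 FPKM in YS libraries 02 and 03. In the MS libraries it was at 0.291, 0.0551 and 0.226 FPKM, a mean read depth of 0.855, 0.148 and 0.684 per base, so that few reads lie behind these values. In the RS libraries it was at 93.5, 97.8 and 39.3 FPKM. All MS libraries were below all YS and RS libraries, and the YS range enclosed the RS range.

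From MS to RS this gene rose by 5.93 on the log2 scale (standard error 0.36, limma adjusted p = 0.0001453), the 11th largest change in size among the 21585 genes. From YS to MS its log2 fold change was -6.34 (standard error 1.44, limma adjusted p = 0.01406), and from YS to RS it was -0.41 (standard error 1.25, limma adjusted p = 0.8575). Without YS library 01 the fall from YS to MS was -4.54 and still passed (limma adjusted p = 0.00205), whereas the difference from YS to RS turned to 1.39 (limma adjusted p = 0.151). With the MS libraries averaged neither call passed, at -6.33 from YS to MS (limma adjusted p = 0.07457) and 5.92 in the later comparison (limma adjusted p = 0.1894). The fall from YS to MS also missed the threshold without MS library 02 (limma adjusted p = 0.05223) or 03 (0.05012), and in 5 of 16 alternatives in all (range 0.00205 to 0.07457), whereas the rise from MS to RS was lost in 1 of 16 (range 7.811e-07 to 0.1894).

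After division by size factors, the endoglucanase-like gene stood at 89.2, 95.1 and 82.1 in RS libraries 01, 02 and 03, so that the low value of RS library 03 was not seen on that scale. The other 4 genes were still lower in RS library 03 than in RS libraries 01 and 02 after the same division. For LOC111275321 these values were 1.91 against 4.98 and 6.85.

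Both endoglucanase 25-like genes were highest in young pulp. LOC111275321 stood at 29.9, 165 and 118 FPKM in YS libraries 01, 02 and 03, at 6.10, 6.19 and 6.82 in the MS libraries, and at 5.21, 7.04 and 0.913 in the RS libraries. LOC111281000 stood at 4.55, 22.1 and 15.1 FPKM at YS, at 0.570, 0.275 and 0.395 at MS, and at 1.36, 1.44 and 0.0907 at RS. For each of them every YS library was above all MS and RS libraries, and the MS and RS libraries overlapped.

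LOC111275321 fell by 3.53 on the log2 scale from YS to MS (standard error 0.589, limma adjusted p = 0.004908) and fell by 4.21 from YS to RS (standard error 0.692, limma adjusted p = 0.004055). LOC111281000 fell by 3.18 from YS to MS (standard error 0.503, limma adjusted p = 0.004098), with a log2 fold change of -2.79 from YS to RS (standard error 0.556, limma adjusted p = 0.009487). Neither passed from MS to RS, where the values were -0.69 (limma adjusted p = 0.3146) and 0.39 (limma adjusted p = 0.3792). Averaging the MS libraries, alone of 16 alternatives, ended both calls from YS to MS, at -3.52 (limma adjusted p = 0.07432) and -3.17 (0.05256). Without RS library 03 the change of LOC111281000 from YS to RS was -2.41 and did not pass (limma adjusted p = 0.0579), 1 of 3 alternatives in which that call was lost (range 0.00183 to 0.09874). The change of LOC111275321 without RS library 03 was -3.585 and still passed (limma adjusted p = 0.03378). LOC111281000 reached 1 FPKM only in its YS libraries and in RS libraries 01 and 02. It met the FPKM minimum through YS, so neither of its falls is support for a direction.

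LOC111275321 was the higher of the pair in all 9 libraries on the FPKM scale, which corrects for gene length. Its ratio to LOC111281000 was 6.58, 7.44 and 7.79 in YS libraries 01, 02 and 03, 10.7, 22.6 and 17.3 in the MS libraries, and 3.83, 4.87 and 10.1 in the RS libraries. The MS ratios were above all others. At MS the lower gene had a mean read depth of 0.738 to 1.67 per base, and the 2 assembled loci over it in MS library 01 together held 2.60 FPKM, above the member's own 0.570. Whether the pair share stretches alike enough for reads to be split between them was not tested.

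In young pulp, YS library 01 differed from the other YS libraries in opposite ways for different members. It held the highest endoglucanase-like value and the lowest value of both endoglucanase 25-like genes. For D3, YS library 01 lay close to YS library 02, at 26.4 against 28.6 FPKM, and at 24.6 against 23.7 after division by size factors. The 82.0 summed FPKM of YS library 01 over 11 cellulose synthase A genes were also the lowest of the YS libraries, against 328 and 232 in libraries 02 and 03. The fruit behind each library is not described beyond its stage.

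To read these calls against all genes, the share of the 21585 tested genes that moved the same way is given beside each first count. From YS to MS, 1 of 5 members rose (5.43% of all tested genes) and 4 fell (10.2%). Between YS and RS, 0 rose in limma (2.89% of all genes, with 0 higher at an unadjusted p under 0.05) and 3 fell (9.36%). Between MS and RS, 1 rose (3.91%) and 1 fell (5.26%). The rise from YS to MS and the fall from MS to RS were both of G2, which met the FPKM minimum only at MS. LOC111281000, counted among the falls from YS, would not have met it without its YS libraries. The members were named by the study from these same libraries, so their counts are no independent evidence of a direction. With the MS libraries averaged, fewer genes passed in both comparisons with MS, among the members and over all tested genes alike. A call lost in that setting is thus not particular to these members. Without a filter on low values, when 39345 genes shared the adjustment, all 3 falls between YS and RS were lost, at limma adjusted p = 0.07758 for D3, 0.07962 for LOC111275321 and 0.09874 for LOC111281000.

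**Figure D2:**
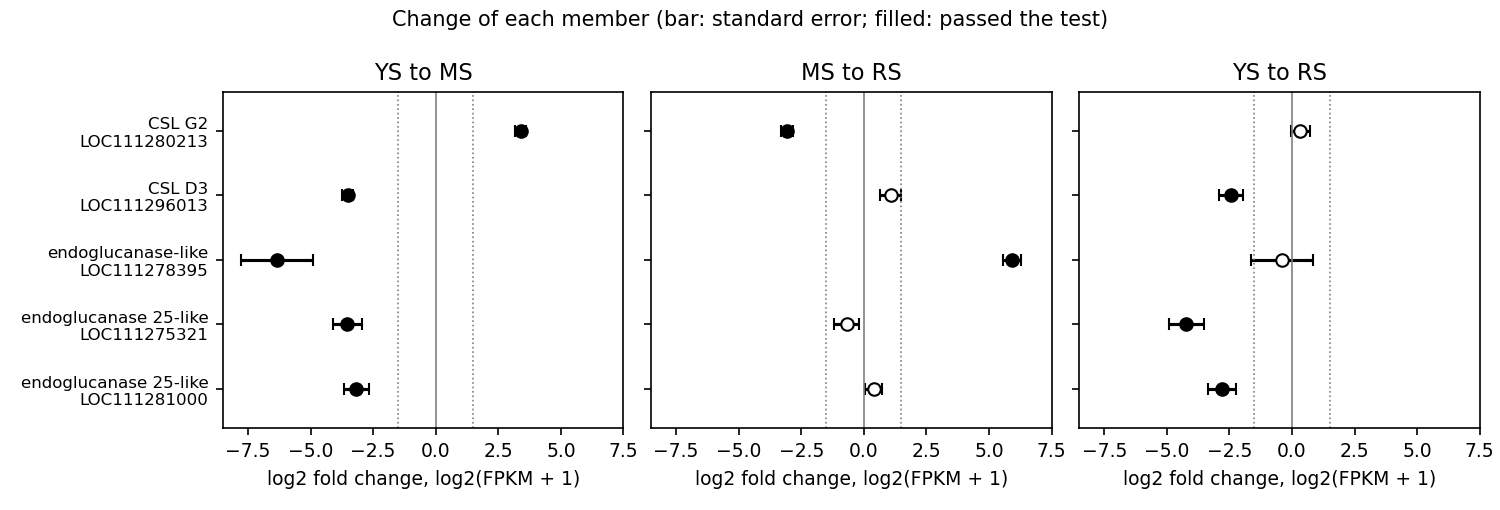
Log2 fold change of each member on the log2(FPKM + 1) scale in the 3 comparisons, with the standard error as a bar, filled points for changes that passed and dotted lines at 1.5 in size. All 5 members pass from YS to MS, only the G2 gene (-3.07) and the endoglucanase-like gene (5.93) from MS to RS, and D3 and both endoglucanase 25-like genes from YS to RS.

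The order of the members by FPKM changed with each stage. At YS the endoglucanase-like gene had the highest mean (406 ± 648 FPKM, SD, n = 3), then LOC111275321 (104 ± 68.5), D3, LOC111281000 (14.0 ± 8.86) and G2. The first overlapped the second over libraries, and the second overlapped D3. The first place rested on YS library 01 (1154 FPKM). In YS libraries 02 and 03 the endoglucanase-like gene (49.9 and 14.0) was below LOC111275321 (165 and 118). In YS library 03 it was also below D3 (41.7) and LOC111281000 (15.1). By the YS median LOC111275321 led, at 118 against 49.9 FPKM. At MS the order was G2, LOC111275321 (6.37 ± 0.393), D3, LOC111281000 (0.413 ± 0.148) and the endoglucanase-like gene (0.191 ± 0.122), where only the last pair overlapped. At RS the endoglucanase-like gene led (76.9 ± 32.6) without overlap, followed by D3, LOC111275321 (4.39 ± 3.15), LOC111281000 (0.966 ± 0.759) and G2, and each of these overlapped the next. The gene with the lowest mean at MS thus had the highest mean at RS, and at YS through library 01. G2, which led at MS, had the lowest mean at YS and RS.

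Summed over the genes the study named, cellulose synthase A, which makes cellulose, also stood highest at YS. Of these 11 genes 7 were tested, and from YS to MS 4 of them fell in limma and 0 rose (0 also at an unadjusted p under 0.05), with a median log2 fold change of -2.68 against 0.06 over all tested genes, of which 10.2% fell and 5.43% rose. The 4 were both genes for catalytic subunit 2 (LOC111293168 at -3.60 and LOC111299804 at -3.17), a subunit 3 gene (LOC111304491 at -3.24) and a subunit 1 gene (LOC111298977 at -2.68), all subunits that in Arabidopsis belong to the complex of the growing wall. LOC111299804 and LOC111304491 would have missed the FPKM minimum without their YS libraries. Their falls from YS, to MS or to RS, are thus no support for a direction. From YS to RS 6 of 7 fell (9.36% of all tested genes), with a median of -2.59 against -0.35 over all genes, led by LOC111299804 (-3.33), LOC111298977 (-3.27), LOC111304491 (-2.97) and LOC111293168 (-2.59). From MS to RS 0 of 7 passed in limma, where 3.91% of all tested genes rose and 5.26% fell. Of the 7, 1 had an unadjusted p under 0.05, and the median was -0.16 against -0.40 over all tested genes. This list and the 3 that follow come from the study's own selection on these libraries, so their directions are not independent evidence. From YS to MS, 2 fell without a filter (1677 of all 39345 genes) and 7 without YS library 01 (2569 of 21585, against 2209 with all libraries). With the MS libraries averaged, fewer fell in the list and over all tested genes, and the list's median was -2.68. From YS to RS, 0 fell without a filter (616 of all 39345 genes), where limma gave 6 with it (2020 of 21585). Without RS library 03, 3 fell from YS to RS (995 of 21585) and 1 rose from MS to RS (LOC111293168 at 1.68).

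The endoglucanase 25-like pair and cellulose synthase A were highest in the same libraries. Together the pair held 34.5, 187 and 133 FPKM in YS libraries 01, 02 and 03, 6.67, 6.47 and 7.22 in the MS libraries, and 6.58, 8.48 and 1.00 in the RS libraries. The cellulose synthase A sum had a YS mean of 214 ± 124 FPKM, and MS and RS means of 27.9 ± 0.352 and 27.1 ± 18.6 FPKM (SD, n = 3). In each library the cellulose synthase A sum was above that of the pair, by 2.38, 1.75 and 1.75 times in the YS libraries, 4.22, 4.25 and 3.89 times in the MS libraries and 5.85, 4.40 and 5.61 times in the RS libraries. The ratio did not overlap between stages, although the highest MS value (4.25) lay just below the lowest RS value (4.40), and no test was run on it. The sum includes the untested subunit 8 gene (LOC111293564), at 4.09 and 3.84 FPKM in RS libraries 01 and 02. The gap between MS and RS is therefore not read as a trait of the whole list.

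**Figure D3:**
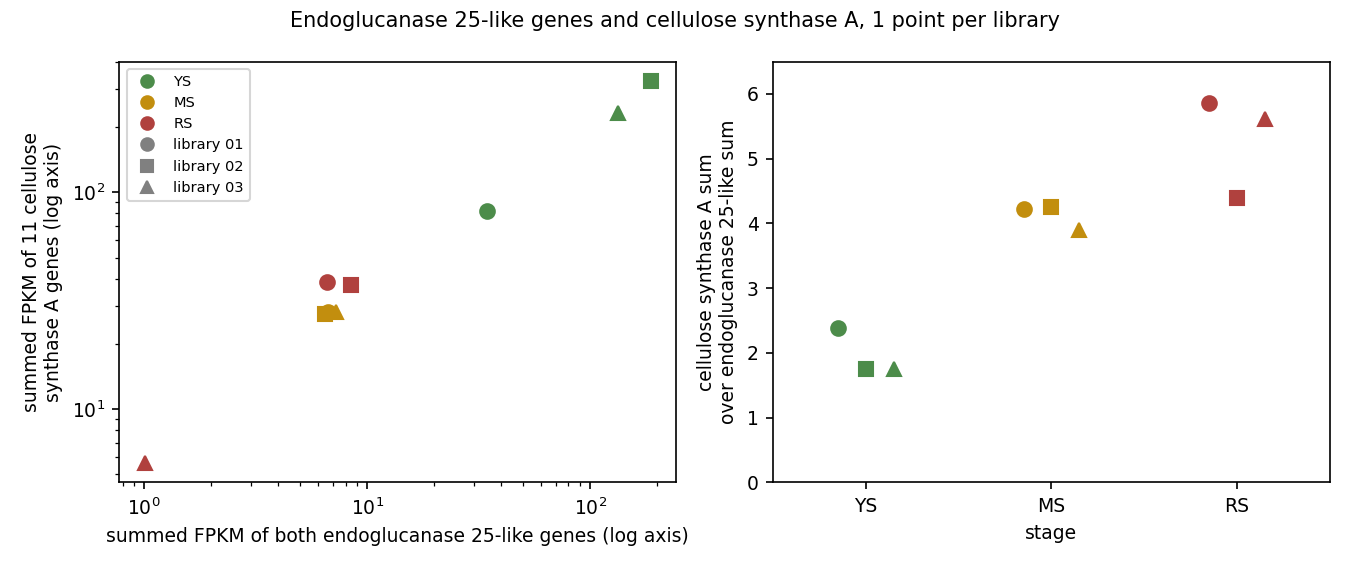
Left, the summed FPKM of 11 cellulose synthase A genes against that of both endoglucanase 25-like genes, 1 point per library on log axes, coloured by stage. Right, the ratio of the sums per library, which lies at 1.75 to 2.38 in YS, 3.89 to 4.25 in MS and 4.40 to 5.85 in RS libraries.

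The other G2 and D3 genes that the study named allow a comparison within the families. The other G2 gene (LOC111291927) fell from YS to MS, by 2.63 on the log2 scale (standard error 0.643, limma adjusted p = 0.01813), where the G2 member rose. It stood at 13.0, 15.2 and 80.2 FPKM at YS, 3.47, 3.47 and 2.92 at MS, and 20.6, 17.7 and 3.20 at RS. The other D3 gene (LOC111276893) fell by 3.20 from YS to MS (standard error 0.313, limma adjusted p = 0.0007923), beside -3.51 for the D3 member. From MS to RS it rose by 1.76 (standard error 0.433, limma adjusted p = 0.02261), against the 1.08 of the D3 member that did not pass. The fall of LOC111276893 held with the MS libraries averaged (limma adjusted p = 0.03741), while that of LOC111291927 (0.2079) and the rise of LOC111276893 (0.3527) did not. Both of the latter also missed the threshold without a filter (limma adjusted p = 0.0791 and 0.0873). Without RS library 03 both genes rose from MS to RS, by 2.23 (LOC111291927) and 2.28 (LOC111276893).

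Xyloglucan glycosyltransferases, of family C of the cellulose synthase-like genes, make the glucan backbone of xyloglucan, which endoglucanases can also cut. Of the 6 named and tested, 4 fell from YS to MS (10.2% of all tested genes) and 1 rose (5.43%), with a median of -2.41 against 0.06 over all tested genes. The falls were those of LOC111291944 (4-like, -4.46) and of 3 genes named xyloglucan glycosyltransferase 12, LOC111315475 (-3.13), LOC111279254 (-2.78) and LOC111312526 (-2.04). LOC111312526 reached the FPKM minimum only through its 3 YS libraries, so its fall is no support for a direction. The gene that rose was xyloglucan glycosyltransferase 9 (LOC111294605, 2.05), which, like the G2 member, was highest at MS, with 15.2, 13.4 and 13.9 FPKM in the MS libraries. It fell from MS to RS (-1.85), while LOC111291944 rose (2.92), and from YS to RS LOC111279254 (-2.30) and LOC111312526 (-2.05) fell. With the MS libraries averaged, these calls of the comparisons with MS were lost (limma adjusted p of 0.05656 or more), and with size factors LOC111294605 did not pass from MS to RS (-1.43). Without RS library 03 the fall of LOC111279254 from YS to RS narrowed to -1.61 and did not pass (limma adjusted p = 0.05008), while from MS to RS LOC111315475 also rose (2.42) and the rise of LOC111291944 was 3.99. Without a filter the rise of LOC111291944 (limma adjusted p = 0.1319) and the fall of LOC111279254 from YS to RS (0.1517) did not pass.

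Beta-glucosidases act on short glucans such as those an endoglucanase releases. Of 5 named, 4 were tested. Only beta-glucosidase 42-like (LOC111276820) passed, with -1.78 from YS to MS and -2.14 from YS to RS, and the first was lost with the MS libraries averaged (limma adjusted p = 0.09965). From MS to RS, where the endoglucanase-like gene rose, 0 of 4 passed in limma (3.91% of all tested genes rose and 5.26% fell). Of the 4, 1 was higher at an unadjusted p under 0.05, while 2 rose without RS library 03. Counts over so few genes are not read as a result about the list. Their median log2 fold change was -1.56 from YS to MS and -1.06 from YS to RS, and the later comparison, of RS with MS, gave 0.50, against 0.06, -0.35 and -0.40 over all tested genes.

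**Figure D4:**
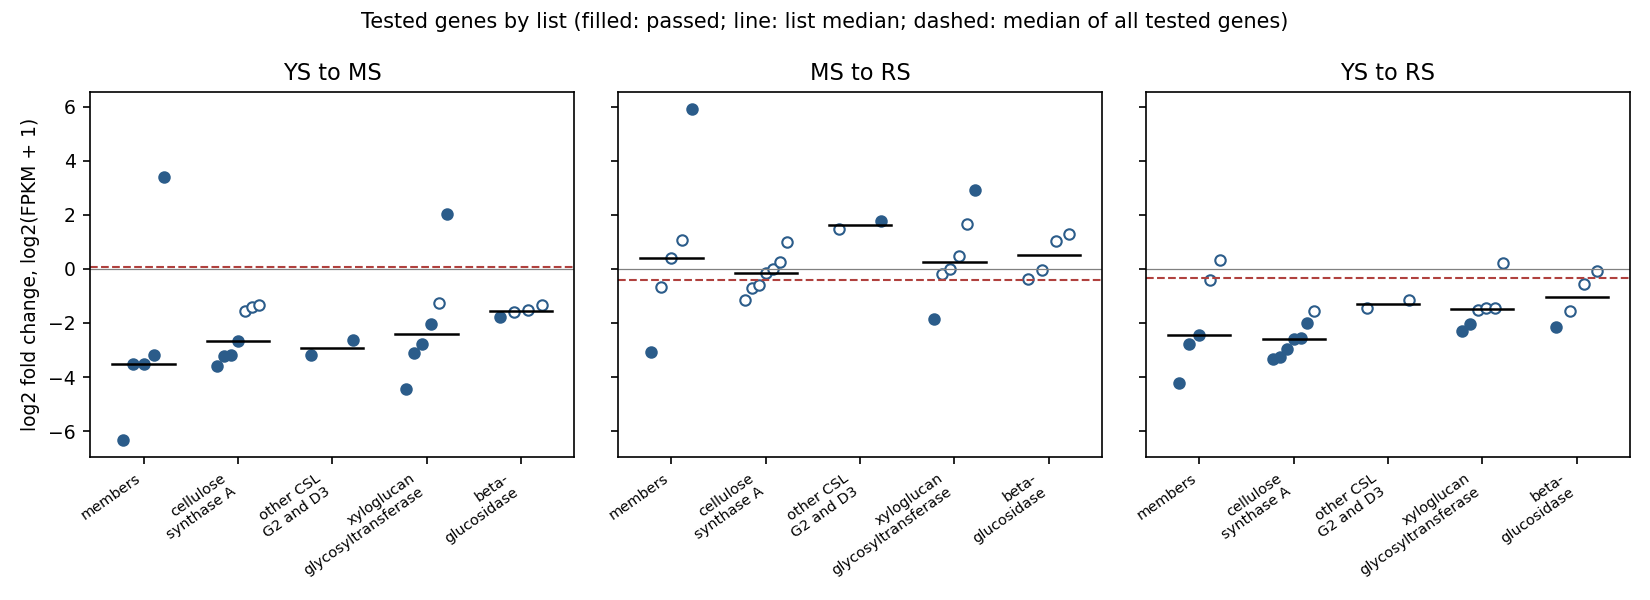
Log2 fold change on the log2(FPKM + 1) scale of every tested gene of each list in the 3 comparisons, filled where it passed, with the list's median as a line and the median of all tested genes dashed (0.06, -0.40 and -0.35 from left to right). The G2 member (3.39) and xyloglucan glycosyltransferase 9 (2.05) are the only genes of these lists above 0 from YS to MS.

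Over the 9 libraries, the genes whose log2(FPKM + 1) ran most like each member are given as a description. For the G2 gene these were LOC111299163 (Pearson r = 0.9974), the uncharacterized LOC111294297 (0.9951) and LOC111285859 (0.9949), and all 3 had their highest stage mean at MS. For the D3 gene they were LOC111283684 (0.9976), LOC111289756 (0.9975) and LOC111274745 (0.9975). The last is pectinesterase 3, of a class that removes methyl groups from pectin, with 268, 0.832 and 9.42 FPKM on average at YS, MS and RS. For the endoglucanase-like gene they were LOC111298137 (0.988), LOC111313416 (0.983) and LOC111295591 (0.98).

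LOC111275321 ran closest to LOC111279779 (0.9962), LOC111299321 (0.995) and LOC111292560 (0.9949). LOC111281000 ran closest to LOC111309977 (0.9973), a beta-galactosidase at 83.2, 12.3 and 14.1 FPKM on average at YS, MS and RS, and to LOC111293837 (0.9955) and LOC111309834 (0.9948). Between the 2 endoglucanase 25-like genes r was 0.9663, and the cellulose synthase A gene most like them was LOC111298977 for LOC111275321 (0.991) and LOC111304491 for LOC111281000 (0.9925). The 9 points share 3 stages, so a gene with the same stage means has a high r whatever its role.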

How the data were processed

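Each of the 9 libraries had 1 gene abundance table, which the authors made with StringTie from mapped reads. The authors name HISAT2 before StringTie, while the submitters' processing notes name FastQC, Trimmomatic, Bowtie and TopHat, so the mapper was not settled. The deposited FPKM values were used. The coverage (signal) deposited beside it gives the average number of reads over each base of a gene. The deposited TPM column, taken as a score because it also spans assembled loci, was not used. A gene not listed was set to 0. No read counts were used, so that depth is known only as mapped bases.

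FPKM was taken to log2 after adding 1. Each pair of stages was fitted with limma 3.58.1 (R 4.3.3) on its 6 libraries, two-sided, with Benjamini-Hochberg adjustment over 21585 genes. A gene passed beyond 1.5 in log2 fold change with an adjusted p under 0.05. Such p-values cover no more than the spread between these libraries, which may be technical in part. An exact permutation test of 3 against 3 cannot go below 0.1 and was not used. Tables were read with Python 3.11.15, pandas 2.3.3 and NumPy 2.4.6, and drawn with Matplotlib 3.10.9.

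The members and lists were chosen with earlier results of these data known. Named were all members, up to 4 genes per list and comparison with the largest change among those that passed and any that passed against the list's direction, and the 3 genes of highest Pearson r to each member. Names came from the study. A gene table of another durian assembly matched 28 of the 29 listed genes, with all 5 members. A search for genes of similar protein sequence was not made, as no durian sequence was used here. Alternatives were 0.5 or 5 added, no filter, size factors, a fit of all 9 libraries, a mean-variance trend, the MS libraries averaged, a replicate block, the row of highest FPKM, assembled loci added, and each library left out. The larger of the member's own value and the assembled loci was tried after the data were seen.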

Additional observations from a re-analysis of the deposited data

How the results depend on the processing

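Over 235 alternative values of the members' log2 fold changes, 216 kept their direction and their side of the threshold, 13 lost a call, 1 gained one and 5 changed sign, none of these 5 in a change that passed. Another 20 values could not move by construction and are not counted, as each member has 1 row per table and the comparison of YS with RS holds no MS library. Adding assembled loci often counted the same signal again, so the values it gave are a weak check. With the MS libraries averaged, fewer members passed in the comparisons with MS, as did fewer of all tested genes, while the members' fold changes hardly moved. Without a filter 0 passed from YS to RS in limma, against 3, while 3 had an unadjusted p under 0.05. The endoglucanase-like gene changed sign from YS to RS with size factors (0.07), without YS replicate 01 (1.39) and without RS replicate 03 (0.01), in a range of -1.75 to 1.39 with 1 library left out. LOC111281000 changed sign from MS to RS with assembled loci added (-0.071) or the larger of both values (-0.28). With 5 added, the endoglucanase-like gene from YS to MS (adjusted p = 0.06039) and LOC111281000 from YS to RS (0.05394) lost their calls. Leaving out 1 library gave 4 to 5 members from YS to MS, 2 to 3 from YS to RS and 2 to 3 from MS to RS. Same-numbered libraries did not deviate together (correlations of -0.16 to 0.08), and a replicate block changed 0 calls, leaving 5 members from YS to MS, 3 from YS to RS and 2 in the last comparison. Size factors moved the median of all genes from -0.35 to 0.02 from YS to RS and from -0.40 to -0.01 from MS to RS. Low coverage limits the endoglucanase-like gene and LOC111281000 at MS, and G2 at YS and RS (2.55, 1.93 and 0.200 reads per base in RS libraries 01, 02 and 03). It also limits LOC111281000 in RS library 03 (0.213 reads per base).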

Other observations

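A pair of the listed genes that were not tested, because they reached 1 FPKM in fewer than 3 libraries, stood highest at RS and were chosen after their values were seen. Cellulose synthase A subunit 8 (LOC111293564), which in Arabidopsis belongs to the complex of the secondary wall, reached 4.09 FPKM in RS library 01 and 3.84 FPKM in RS library 02 but 0.166 FPKM in RS library 03, and lay between 0.105 and 0.943 FPKM in the YS and MS libraries. Beta-glucosidase 11 (LOC111305070) was at 9.62, 8.76 and 0.347 FPKM in the RS libraries and at 0.733 FPKM or less at YS and MS. Both were low in RS library 03.

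The gene nearest to the endoglucanase-like gene (LOC111278371, 250 bp away on the same strand) had stage means of 1.94, 3.01 and 1.24 FPKM at YS, MS and RS. The gene next to D3 (LOC111297178, 205 bp away on the same strand) had means of 0.983, 0 and 0.0982 FPKM. The gene next to LOC111275321 (LOC111275322, 315 bp away on the same strand) had means of 0.394, 0.111 and 0.0251 FPKM. Neighbours further away are not given. Stage means this low were not compared by a test, so nothing is read from their order.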
